A study of Mus musculus with 8 samples.

Results

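The 8 genes described here are the mouse retrotransposon-derived Gag-like genes *Rtl5*, *Rtl6*, *Rtl8a*, *Rtl8b*, *Rtl8c*, *Ldoc1*, *Peg10* and *Rtl1*, out of 48709 genes counted in each library. They were taken by symbol, and the list was chosen by the difference of *Rtl5* between the groups of these same libraries, where it was higher in the mutant cortex. The difference of *Rtl5* between the groups, and the differences of the other 7 genes in the same comparison, are therefore given as a description. Where the text says whether such a gene passed the threshold of the fit over all genes, this belongs to the description and supports nothing.

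RNA of the whole cortex of C57BL6/J mice at postnatal day 1 (P1) was sequenced from 4 control and 4 dcKO_Nex-Cre samples. The control animals were heterozygous for the floxed alleles and had no Cre (BAF155fl/+, BAF170fl/+, Cre negative). In the dcKO_Nex-Cre animals the floxed BAF155 and BAF170 genes (*Smarcc1* and *Smarcc2*), which encode scaffold subunits of the BAF chromatin remodeling complex, were deleted by Nex-Cre. This Cre acts in postmitotic projection neurons of the cortex, so that glia, interneurons, microglia and vessels in the same tissue kept both genes. The labels give only control or mutant and the age, and the Cre line was taken from the study, which describes a single sequencing comparison at P1. Nothing in the labels says whether each sample was 1 animal, so that errors measure the spread between these samples.

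Gag is the structural protein with which retroviruses and long terminal repeat retrotransposons build their capsids. During mammalian evolution several Gag sequences were taken over as host genes that no longer transpose, and most of those described here descend from sushi-ichi retrotransposons. *Peg10* and *Rtl1* are imprinted, are expressed from the paternal allele and are best known for their need in the placenta. *Ldoc1* also acts in the placenta, *Rtl5* and *Rtl6* have been described as genes of microglia in the brain, and the *Rtl8* genes are small X-linked copies whose proteins, like PEG10, are handled by the ubiquilin pathway of protein turnover.

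Control libraries held 18737230 to 24036915 counts and dcKO_Nex-Cre libraries 17958641 to 35191912. Counts are given as CPM, counts scaled to a common library size by edgeR's TMM method, with the SD over 4 libraries. *Smarcc2* was at 462 ± 25.8 CPM in control and 263 ± 26.03 CPM in dcKO_Nex-Cre cortex (SD, n = 4 each), and *Smarcc1* at 148 ± 11.6 and 102 ± 13.7 CPM, with no overlap between the groups for either gene. Lane tag 2 stands in the file names of all controls and of dcKO_Nex-Cre replicates 1 and 2, and lane tag 8, for which there is no control, in those of dcKO_Nex-Cre replicates 3 and 4. Control replicate 2 and dcKO_Nex-Cre replicate 2 held high *Xist* RNA (1877 and 917 CPM), and control replicate 2 also held Y-linked RNA at 7.26% of the median of the 6 other libraries. Excitatory neuron markers summed to 1606 to 1869 CPM in control and 1364 to 1594 CPM in dcKO_Nex-Cre libraries. Of these 8 markers, only *Neurod6* passed an adjusted p of 0.05 in edgeR, where 0.51% of all tested genes passed as lower. *Neurod6* was at 645 ± 84.4 CPM in control and 387 ± 48.0 CPM in dcKO_Nex-Cre cortex (SD, n = 4 each). Log2 fold changes above 0 were fitted for 3 of the 8 markers. Single libraries held 570 to 750 CPM of *Neurod6* in control and 327 to 437 CPM in dcKO_Nex-Cre cortex. *Neurod6* is also known as *Nex*, the name of the Cre line, and the controls had no Cre. The part of the Cre allele in the *Neurod6* values and the part of *Neurod6* in the sums were not tested. In bulk tissue, fewer cells of a type and less RNA per cell cannot be told apart.

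*Rtl5* (ENSMUSG00000049191) is an X-linked gene with all its annotated transcripts in 1 exon (GRCm38, chromosome X, 102066544 to 102071304, minus strand). Its promoter is shown because *Rtl5* is the gene by which the list was chosen. The sequence is RefSeq's, from 250 bases before to 50 bases after the start of the gene (chrX:102071258-102071557, minus strand, GRCm38.p6), with CpG dinucleotides in capitals.
Rtl5: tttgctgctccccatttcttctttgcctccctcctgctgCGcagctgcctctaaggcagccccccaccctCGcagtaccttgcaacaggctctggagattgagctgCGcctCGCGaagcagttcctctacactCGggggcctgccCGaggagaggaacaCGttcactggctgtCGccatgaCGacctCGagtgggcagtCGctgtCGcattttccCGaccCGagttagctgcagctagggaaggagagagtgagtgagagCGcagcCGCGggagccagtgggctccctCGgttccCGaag
The window holds 20 CpG dinucleotides, and 73.5% of the 32851 mouse promoters of the same length in the table hold fewer. Its GC content is 62.7%.

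*Rtl5* was at 44.3, 44.3, 46.0 and 44.6 CPM in control replicates 1 to 4 and at 63.9, 63.0, 66.6 and 65.6 CPM in dcKO_Nex-Cre replicates 1 to 4. Every dcKO_Nex-Cre library lay above every control library. The means were 44.8 ± 0.824 CPM in control and 64.8 ± 1.62 CPM in dcKO_Nex-Cre cortex (SD, n = 4 each), which is 145% of the control level. The fitted log2 fold change was 0.53 with a standard error of 0.064. The dcKO_Nex-Cre libraries of lane tag 2 stood at 63.9 and 63.0 CPM and those of lane tag 8 at 66.6 and 65.6 CPM, and within lane tag 2 the log2 fold change was 0.50. The libraries with high *Xist* RNA, at 44.3 and 63.0 CPM, sat with the others of their groups, and with the sex of the library as a term the log2 fold change stayed at 0.53.

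The replicates of *Rtl5* lay close together. After removing the group means, the SD of its log2 CPM was 0.032, and only 0.129% of all tested genes had a smaller one. Among 5111 genes of like expression level the share with a smaller SD was 0.293%, and their median SD was 0.13. A difference between groups stands out more readily where the SD is small. The choice of *Rtl5* by its difference therefore favoured a small SD, and these shares are a description only. Between 809 and 2204 counts per library stood behind these values.

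**Figure D1:**
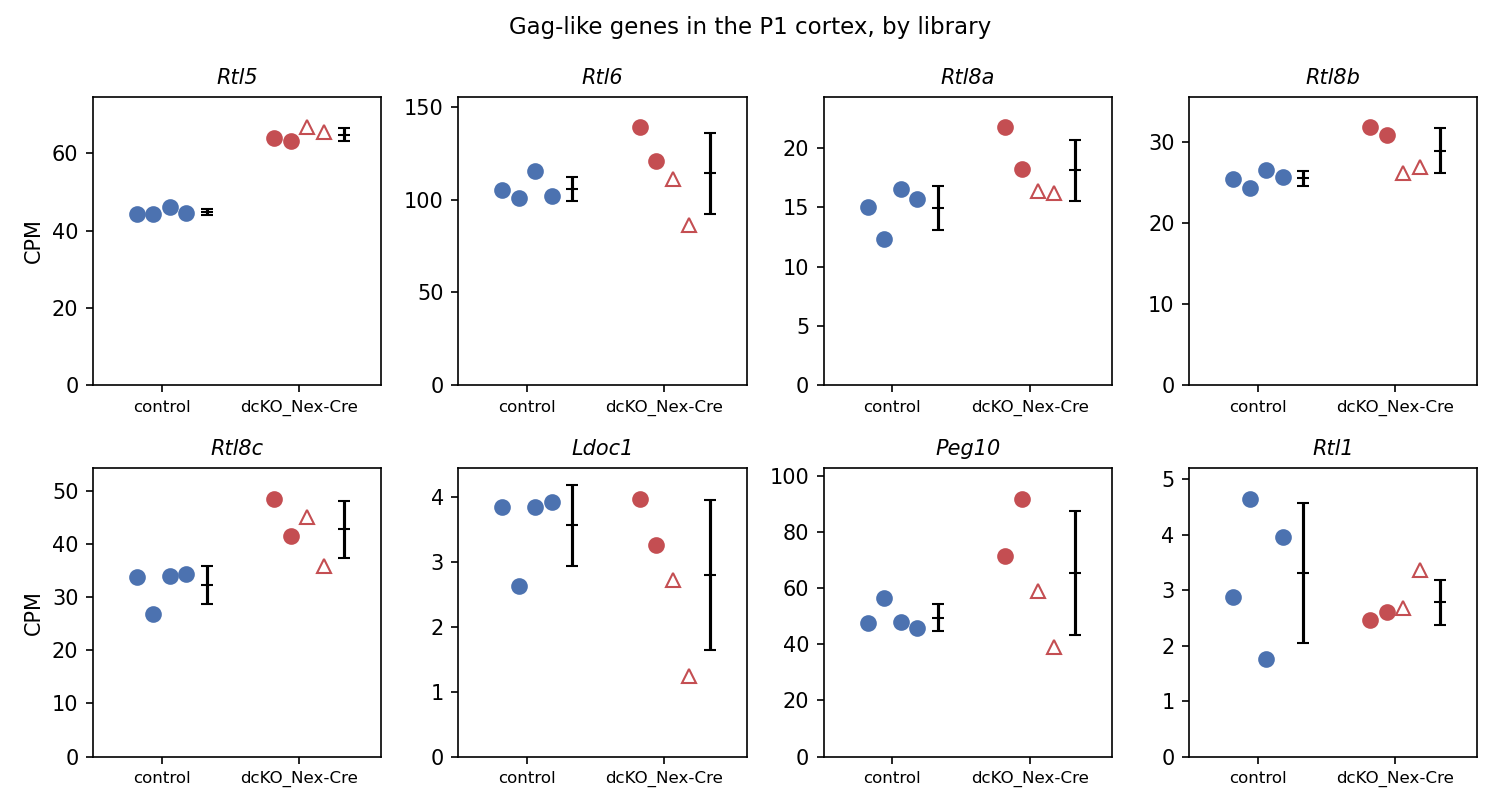
CPM (y axis, from 0) of the 8 Gag-like genes in each control (blue) and dcKO_Nex-Cre (red) library, with lane tag 2 as filled circles, lane tag 8 as open triangles, and the mean with the SD of 4 libraries in black. The *Rtl5* libraries lie between 44.3 and 46.0 CPM in the control and between 63.0 and 66.6 CPM in the dcKO_Nex-Cre cortex. The groups of *Rtl6*, *Rtl8a*, *Rtl8b*, *Ldoc1*, *Peg10* and *Rtl1* overlap.

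Of the 8 genes, only *Rtl5* was past an adjusted p of 0.05 in edgeR's quasi-likelihood fit over all genes. Since the list was chosen by this difference, that *Rtl5* passed was fixed by the choice, while the other genes could pass or not. The share over all 16287 tested genes was 0.375% for genes higher in the dcKO_Nex-Cre cortex and 0.51% for genes lower in it. All 8 genes passed the filter on low counts. The groups did not overlap for *Rtl5* and *Rtl8c*, which were both higher, against 3.99% of all tested genes that were higher and 4.01% that were lower without overlap. Log2 fold changes above 0 were seen for 6 of the 8 genes and for 50.9% of all tested genes. The median over the 8 genes was 0.23, beside 0.0043 over all tested genes.

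*Rtl6* (ENSMUSG00000055745, chromosome 15, 84553398 to 84557823, minus strand, 1 exon) is the other family member with a described role in microglia. Its level was 105, 101, 115 and 102 CPM in the control and 139, 121, 111 and 86.4 CPM in the dcKO_Nex-Cre libraries. The highest and the lowest of the 8 values were both dcKO_Nex-Cre libraries, so that the control values lay inside the range of the dcKO_Nex-Cre values. The SD was 6.63 CPM in the control and 21.8 CPM in the dcKO_Nex-Cre cortex. Fitted over all libraries its log2 fold change was 0.11 (standard error 0.12), and 0.30 within lane tag 2.

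Microglia markers summed to 107 to 129 CPM in control and 111 to 140 CPM in dcKO_Nex-Cre libraries. None of the 8 marker genes passed the test, and 1 was higher and 1 lower at an unadjusted p under 0.05 in edgeR, a threshold that 6.59% of all tested genes passed as higher and 7.05% as lower. *P2ry12*, a purinergic receptor of resting microglia, had the smallest p of this list, with 12.1 ± 0.318 CPM in control and 8.12 ± 1.20 CPM in dcKO_Nex-Cre cortex (SD, n = 4 each; log2 fold change -0.57, adjusted p = 0.0596 from edgeR). The part of microglia in the values of *Rtl5* and *Rtl6* was not tested.

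*Rtl8a*, *Rtl8b* and *Rtl8c* are X-linked copies that lie within 1 cluster on chromosome X (*Rtl8c*, 53608032 to 53608432, plus strand; *Rtl8a*, 53642488 to 53643682, minus strand; *Rtl8b*, 53669177 to 53670408, minus strand), each with 1 annotated exon. The coding sequences of *Rtl8a* and *Rtl8b* are identical over 342 bases, and that of *Rtl8c* is 81.5% identical to them. Of all stretches of 50 bases in the *Rtl8a* and *Rtl8b* transcripts, 17.5% and 20.03% occurred in neither of the other copies, against 98.3% for *Rtl8c*. How reads shared between copies were counted is not given in the sources used here. The separate values of *Rtl8a* and *Rtl8b* are therefore uncertain, and so are their sum with *Rtl8c* and the shares of the copies.

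The promoters of the 3 copies are shown because they differ in what they share. They are RefSeq's windows on GRCm38.p6 (*Rtl8a*, chrX:53643714-53644013, minus strand; *Rtl8b*, chrX:53670388-53670687, minus strand; *Rtl8c*, chrX:53607672-53607971, plus strand), and capitals mark runs of at least 12 bases that also occur in the promoter of another copy.
Rtl8a: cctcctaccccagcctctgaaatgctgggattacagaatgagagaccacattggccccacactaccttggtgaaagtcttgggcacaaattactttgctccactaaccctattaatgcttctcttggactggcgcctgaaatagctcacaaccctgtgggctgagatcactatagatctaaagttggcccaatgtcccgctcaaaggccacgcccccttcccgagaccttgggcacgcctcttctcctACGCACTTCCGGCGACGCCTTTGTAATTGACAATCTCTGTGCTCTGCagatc
Rtl8b: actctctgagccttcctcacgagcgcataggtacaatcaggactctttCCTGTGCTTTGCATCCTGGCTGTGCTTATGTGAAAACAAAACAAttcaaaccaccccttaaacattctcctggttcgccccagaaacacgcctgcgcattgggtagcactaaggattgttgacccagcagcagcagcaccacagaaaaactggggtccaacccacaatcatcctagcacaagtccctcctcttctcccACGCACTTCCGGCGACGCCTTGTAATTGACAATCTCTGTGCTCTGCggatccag
Rtl8c: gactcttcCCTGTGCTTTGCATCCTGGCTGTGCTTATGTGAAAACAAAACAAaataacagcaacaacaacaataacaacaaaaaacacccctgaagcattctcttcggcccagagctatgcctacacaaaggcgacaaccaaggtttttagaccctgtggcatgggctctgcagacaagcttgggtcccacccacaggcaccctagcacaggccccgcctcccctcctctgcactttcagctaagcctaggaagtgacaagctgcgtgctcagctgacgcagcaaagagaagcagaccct
*Rtl8a* and *Rtl8b* share their longest run of 27 bases at the start of the gene, and *Rtl8b* and *Rtl8c* share 44 bases in the upstream part of the window. The 9 bases CACTTCCGG, searched on both strands, stand in the *Rtl6*, *Rtl8a* and *Rtl8b* windows and in 2.03% of all promoters; this string was chosen after the sequences were seen. Of the 6 members with a promoter in the table, none holds TGACGTCA (1.79% of all promoters), GGGCGG (35.7%) or TATAAA (13.6%) on either strand, and these motifs do not overlap each other. *Peg10* and *Rtl1* are not in the promoter table.

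*Rtl8c* (ENSMUSG00000051851) was at 33.7, 26.8, 34.0 and 34.3 CPM in the control and at 48.5, 41.5, 45.0 and 35.9 CPM in the dcKO_Nex-Cre libraries. All dcKO_Nex-Cre values lay above the control values, although replicate 4 at 35.9 CPM stood next to the highest control. A log2 fold change of 0.41 (standard error 0.11) was fitted, and 0.48 within lane tag 2. *Rtl8c* did not pass the threshold in the comparison of all libraries but did so without dcKO_Nex-Cre replicate 4, where its log2 fold change was 0.49 and 3.98% of all tested genes passed as higher. It also did so in DESeq2's Wald test, with a log2 fold change of 0.42, where 1.17% of genes passed as higher.

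*Rtl8a* (ENSMUSG00000067925) was at 15.0, 12.3, 16.6 and 15.7 CPM in the control and at 21.7, 18.2, 16.3 and 16.2 CPM in the dcKO_Nex-Cre libraries. *Rtl8b* (ENSMUSG00000067924) was at 25.5, 24.4, 26.6 and 25.8 CPM in the control and at 31.8, 30.9, 26.2 and 26.9 CPM in the dcKO_Nex-Cre libraries. For both genes, the dcKO_Nex-Cre replicates 1 and 2 were above all controls and replicates 3 and 4 were near the control level. Replicates 3 and 4 are those with lane tag 8. The log2 fold changes were 0.28 (standard error 0.13) and 0.18 (standard error 0.088) over all libraries, and 0.42 and 0.30 within lane tag 2.

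With the counts of the 3 copies added together, their level was 72.6 ± 6.21 CPM in control and 89.8 ± 9.52 CPM in dcKO_Nex-Cre cortex (SD, n = 4 each). For the sum, 0.31 (standard error 0.094) was fitted on the log2 scale, which did not pass the threshold. *Rtl8c* gave 44.2% ± 1.46 (SD, n = 4) of the summed counts in the control and 47.5% ± 2.75 (SD, n = 4) in the dcKO_Nex-Cre cortex, *Rtl8b* gave 35.3% ± 2.06 and 32.3% ± 2.11, and *Rtl8a* 20.5% ± 0.877 and 20.1% ± 1.10. Single libraries gave *Rtl8c* shares of 42.2% to 45.4% in control and 45.4% to 51.4% in dcKO_Nex-Cre cortex, so that the groups met at the border.

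**Figure D2:**
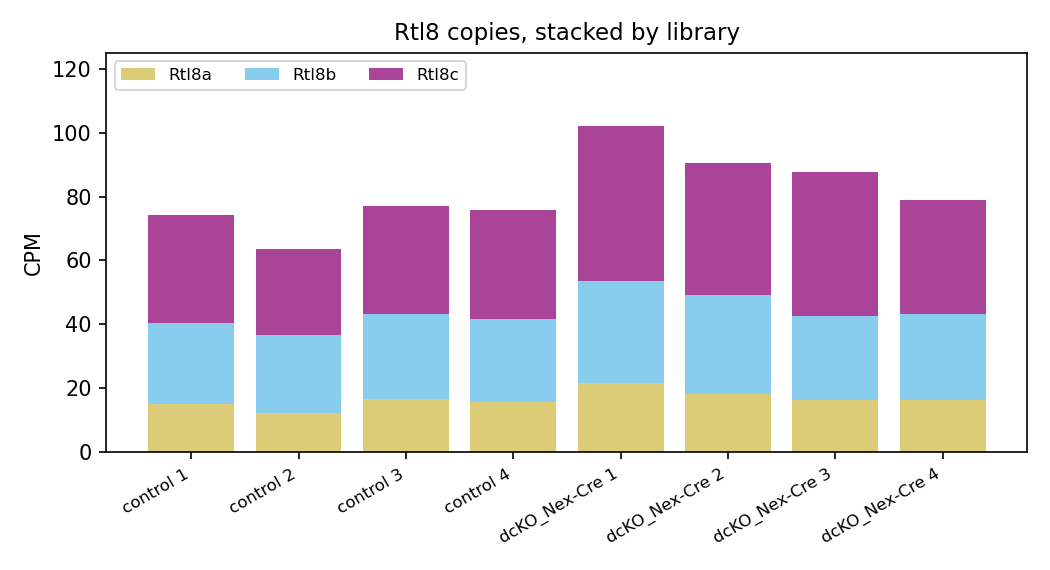
CPM of *Rtl8a*, *Rtl8b* and *Rtl8c* stacked for each library (x axis), from 0. The stacks reach 63.5 to 77.1 CPM in the control and 79.0 to 102 CPM in the dcKO_Nex-Cre libraries. *Rtl8c* is the largest segment in each library, though how reads shared between copies were counted is not given.

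*Ldoc1* (ENSMUSG00000057615, chromosome X, 61709497 to 61710955, plus strand, 1 exon), also known as *Rtl7*, acts in the hormone-producing cells of the placenta. It was at 3.85, 2.63, 3.84 and 3.92 CPM in the control and at 3.97, 3.26, 2.72 and 1.23 CPM in the dcKO_Nex-Cre libraries. The groups overlapped, and the lowest value was that of dcKO_Nex-Cre replicate 4. Only 22 to 137 counts per library stood behind these values. The log2 fold change was -0.32 (standard error 0.29) over all libraries and 0.02 within lane tag 2, so that its sign depended on the libraries of lane tag 8.

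*Peg10* (ENSMUSG00000092035, chromosome 6, 4747306 to 4760517, plus strand, 2 exons) encodes a Gag and, by ribosomal frameshifting, a Gag-Pol protein. It was at 47.7, 56.5, 48.1 and 45.8 CPM in the control and at 71.4, 91.9, 59.2 and 39.0 CPM in the dcKO_Nex-Cre libraries. Replicates 1, 2 and 3 of the dcKO_Nex-Cre cortex were above all controls and replicate 4 was below them all. The means were 49.5 ± 4.76 CPM (SD, n = 4) and 65.4 ± 22.2 CPM (SD, n = 4). This gave a log2 fold change of 0.40 with a standard error of 0.20. Among 5046 genes of like expression level, 98.5% had a smaller SD within the groups than *Peg10* at 0.38 on the log2 scale.

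In either group the highest *Peg10* value came from replicate 2, which is also the library with high *Xist* RNA. Replicate 2 also had the highest summed striatum markers, at 105 CPM in the control and 214 CPM in the dcKO_Nex-Cre cortex. Its summed meninges markers were the highest of each group as well, at 30.8 and 67.9 CPM. Its choroid plexus markers were the highest of the dcKO_Nex-Cre libraries at 550 CPM but the lowest of the controls at 16.0 CPM. The other libraries had striatum sums of 62.0 to 90.6 CPM, and *Ppp1r1b*, a striatal signaling protein, rose from 30.4 ± 2.26 to 59.0 ± 19.7 CPM (SD, n = 4 each, log2 fold change 0.96, adjusted p = 0.04 from edgeR). The lowest *Peg10* and *Ldoc1* values came from dcKO_Nex-Cre replicate 4, where the summed markers of thalamus and hypothalamus stood at 10.4 CPM, against 20.6 to 24.5 CPM in the other libraries. *Oxt* was at 0 in all libraries. The part of neighbouring tissue in the *Peg10* values was not tested. Without dcKO_Nex-Cre replicate 2 the log2 fold change was 0.20, and without replicate 4 it was 0.59 and passed the threshold. Within lane tag 2 it was 0.72 and also passed, where 0.834% of all tested genes passed as higher.

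*Rtl1* (ENSMUSG00000085925, chromosome 12, 109589193 to 109600330, minus strand, 2 exons) lies in the imprinted *Dlk1* to *Dio3* region. It was at 2.88, 4.65, 1.75 and 3.96 CPM in the control and at 2.46, 2.61, 2.68 and 3.37 CPM in the dcKO_Nex-Cre libraries. The dcKO_Nex-Cre values lay inside the range of the control values, and 42 to 90 counts per library stood behind them. The log2 fold change was -0.25 (standard error 0.27), and -0.37 within lane tag 2.

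The strand opposite to *Rtl1* carries 6 microRNA genes, which are transcribed from the maternal allele and are known to direct cleavage of the *Rtl1* transcript. In RefSeq, 11 mature arms lie on that strand, and all 11 have a fully complementary site in the *Rtl1* transcript. An arm of each of 2 hairpins and its site are shown as examples of this antisense pairing, with the seed (bases 2 to 8) and the bases that match it in capitals (chr12:109592888-109592909, plus strand and chr12:109595331-109595352, plus strand, GRCm38.p6). The sites lie at bases 2642 to 2663 and 199 to 220 of the transcript.
mmu-miR-127-3p: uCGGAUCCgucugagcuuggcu
Site for mmu-miR-127-3p in Rtl1: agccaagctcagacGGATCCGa
mmu-miR-136-5p: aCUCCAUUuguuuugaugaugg
Site for mmu-miR-136-5p in Rtl1: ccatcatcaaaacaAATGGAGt
The 6 hairpin genes, as well as *Mir3071* on the strand of *Rtl1*, had 0 counts in all libraries, and small RNA was not measured here. The kit does not mark strand, so that reads of *Rtl1* and of a transcript running opposite to it could not be told apart.

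**Figure D3:**
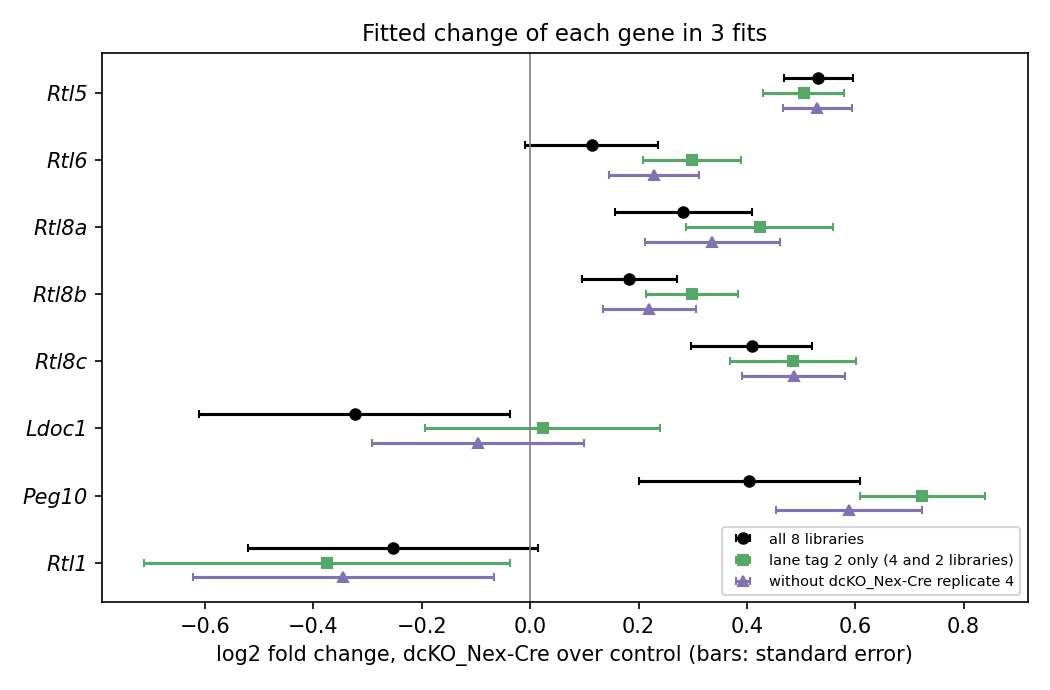
Fitted log2 fold change (x axis, dcKO_Nex-Cre over control, bars for the standard error) of the 8 genes with all 8 libraries, with lane tag 2 only and without dcKO_Nex-Cre replicate 4. *Rtl5* stays between 0.50 and 0.53 in the 3 fits, *Peg10* moves from 0.40 to 0.72 and 0.59, and *Ldoc1* is at -0.32 with all libraries and 0.02 within lane tag 2.

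Levels were compared between the genes as CPM per kilobase of annotated exon. In the control, the order from high to low was *Rtl8c* with 80.3 ± 8.95, *Rtl6* with 23.9 ± 1.50, *Rtl8b* with 20.7 ± 0.747, *Rtl8a* with 12.5 ± 1.54, *Rtl5* with 9.41 ± 0.173, *Peg10* with 7.43 ± 0.714, *Ldoc1* with 2.44 ± 0.426 and *Rtl1* with 0.521 ± 0.20 CPM per kilobase (SD, n = 4). The ranges of neighbours in this order did not overlap in the control. In the dcKO_Nex-Cre cortex, *Rtl6* (19.5 to 31.4 CPM per kilobase) overlapped *Rtl8b* (21.3 to 25.8), *Rtl8a* (13.5 to 18.2) overlapped *Rtl5* (13.2 to 14.0), and *Rtl5* overlapped *Peg10* (5.84 to 13.8). The places of *Rtl8a* and *Rtl8b* are uncertain, since how reads shared between copies were counted is not given. The place of *Rtl8c* rests on its length, since GENCODE gives it 401 bases and RefSeq 1214 bases. With the RefSeq length its control level was 26.5 ± 2.96 CPM per kilobase (SD, n = 4), with a range of 22.1 to 28.2 that overlapped that of *Rtl6* at 22.7 to 26.0.

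**Figure D4:**
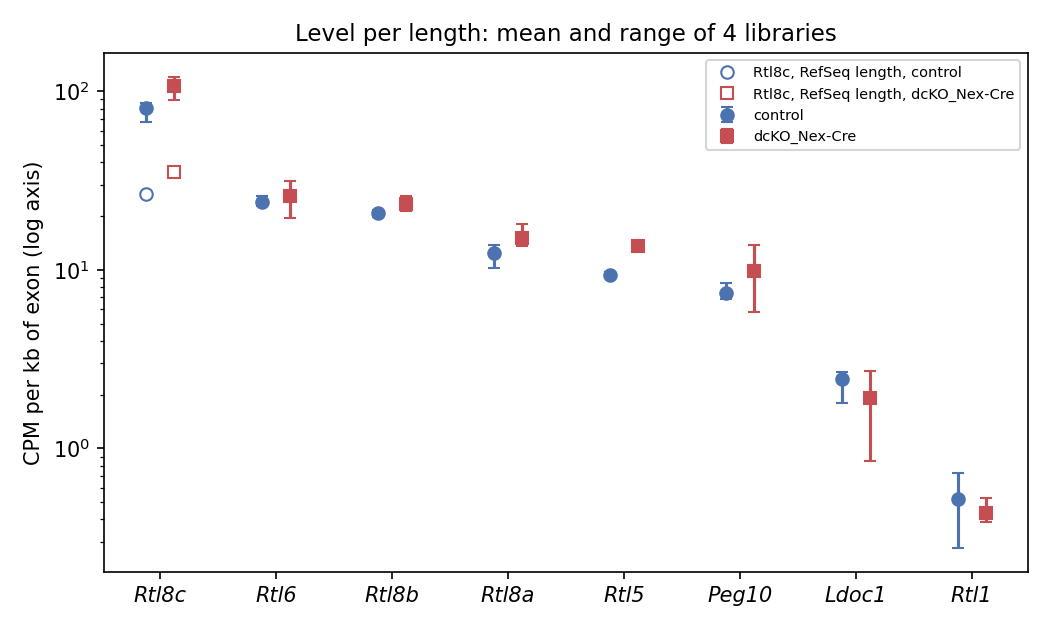
Mean level per kilobase of exon (y axis, CPM per kilobase, log scale) of the 8 genes in the control (circles) and dcKO_Nex-Cre cortex (squares), with bars for the lowest and highest of 4 libraries and open symbols for *Rtl8c* with its RefSeq length. The control means run from 80.3 for *Rtl8c* (26.5 with the RefSeq length) down to 0.521 for *Rtl1*.

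*Rtl5* lies within *Nhsl2* on the opposite strand, without sharing exon bases. *Nhsl2* was at 8.51 ± 0.944 CPM in control and 10.3 ± 2.61 CPM in dcKO_Nex-Cre cortex (SD, n = 4 each), a log2 fold change of 0.29 (adjusted p = 0.485 from edgeR). *Rtl8c* overlaps the span of *Gm14597*, also on the opposite strand and without shared exon bases, and *Gm14597* stood at 0.51 on the log2 scale (adjusted p = 0.267 from edgeR), at 2.63 ± 0.426 and 3.75 ± 0.703 CPM (SD, n = 4 each). Neither of these overlapping genes passed the test. Since the kit does not mark strand, intron reads of *Nhsl2* or *Gm14597* could not be told apart from reads of *Rtl5* or *Rtl8c*.

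The genes whose start lay within 500 kb of a Gag-like gene were then examined. None of the 7 tested genes around *Rtl5* passed an adjusted p of 0.05 in edgeR, the smallest being 0.445, none had an unadjusted p under 0.05, and their log2 fold changes ran from -0.34 to 0.29. None of the 5 genes around *Peg10* passed either, 3 had an unadjusted p under 0.05 (13.6% of all tested genes did), and 4 had a log2 fold change above 0. They include *Sgce*, which is imprinted like *Peg10* and starts within 1 kb of it on the opposite strand, and differed by 0.26 on the log2 scale (SE 0.085, adjusted p = 0.213 from edgeR). All 6 genes around *Rtl1* were below 0, from -0.96 to -0.02, with a smallest adjusted p of 0.329 in edgeR and 1 unadjusted p under 0.05. The 13 genes around *Rtl6*, the 6 around the *Rtl8* copies and the gene near *Ldoc1* likewise held no call, with 2, 1 and 0 unadjusted p under 0.05. Over all loci, 5 neighbours passed without dcKO_Nex-Cre replicate 4, where 7.73% of all tested genes passed in either direction, and none in the 14 other alternatives, DESeq2's test included.

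**Figure D5:**
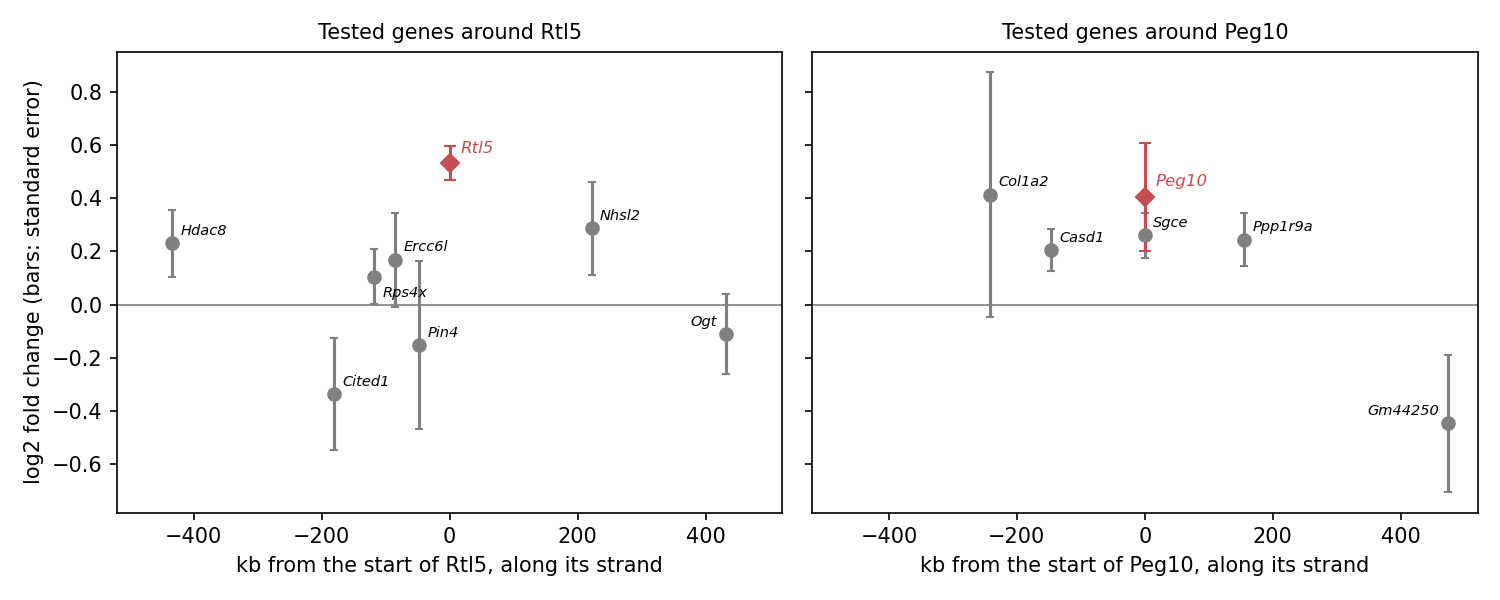
Log2 fold change (y axis, bars for the standard error) of the tested genes around *Rtl5* and *Peg10*, against the distance of their start in kb along the strand of *Rtl5* or *Peg10* (x axis). *Rtl5* at 0.53 stands above its 7 neighbours, which lie between -0.34 and 0.29, and *Sgce* at 0.26 starts beside *Peg10* at 0.40.

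Other genes with Gag-derived or related retroviral sequence were taken from a list of 19, of which 14 were tested. None passed an adjusted p of 0.05 in edgeR or DESeq2. In edgeR, 1 was higher (*Zcchc12*) and 3 were lower (*Rtl4*, *Pnma3* and *Zcchc18*) at an unadjusted p under 0.05, beside 6.59% and 7.05% of all tested genes. The median log2 fold change was 0.03, with 8 of 14 above 0. *Pnma3*, of the paraneoplastic antigen family, had the smallest p, at 18.1 ± 1.20 CPM in control and 14.5 ± 1.47 CPM in dcKO_Nex-Cre cortex (SD, n = 4 each; log2 fold change -0.32, adjusted p = 0.201 from edgeR). *Arc*, whose protein forms capsids that carry RNA between neurons, stood at 0.03 (standard error 0.38) on the log2 scale and ranged from 1.18 to 5.56 CPM in the dcKO_Nex-Cre libraries. *Arc* and the genes at an unadjusted p were named after their values were seen. Without dcKO_Nex-Cre replicate 4, where 7.73% of all tested genes passed, 1 gene of this list did (*Nynrin*, also named after its values were seen).

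Since *Peg10* and *Rtl1* are imprinted, other imprinted genes were compared. Of 60 tested genes, 1 rose and none fell, beside 0.884% of all tested genes that passed in either direction. The gene that rose was *Plagl1*, a zinc finger transcription factor expressed from the paternal allele, which went from 40.6 ± 1.60 CPM in control to 68.5 ± 11.7 CPM in dcKO_Nex-Cre cortex (SD, n = 4 each; log2 fold change 0.75, standard error 0.12, adjusted p = 0.0177 from edgeR). Its groups did not overlap, with 38.3 to 42.0 CPM against 51.5 to 76.4 CPM. The list median was -0.015. *Plagl1* passed without control replicate 2 and without dcKO_Nex-Cre replicates 1 and 4, whereas without control replicates 1, 3 or 4 or dcKO_Nex-Cre replicates 2 or 3 the list held 0 calls. Without dcKO_Nex-Cre replicate 4 it held 6 calls, where 7.73% of all tested genes passed in either direction. DESeq2's Wald test called 3 (*Plagl1*, *Grb10* and *Sfmbt2*), where 2.66% of all genes passed; *Grb10* and *Sfmbt2* were named after their values were seen.

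Proteins of *Peg10* and *Rtl8* are turned over by ubiquilins and by the ubiquitin ligase UBE3A. None of the 4 genes *Ubqln1*, *Ubqln2*, *Ubqln4* and *Ube3a* passed in edgeR or DESeq2, and none had an unadjusted p under 0.05 in edgeR. *Ube3a* had the smallest p of the 4, at 91.3 ± 3.98 CPM in control and 95.6 ± 2.40 CPM in dcKO_Nex-Cre cortex (SD, n = 4 each; log2 fold change 0.07, adjusted p = 0.652 from edgeR).

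Among 24 tested genes that silence retroelements by histone or DNA methylation, none passed in edgeR or DESeq2 and 2 were higher at an unadjusted p under 0.05 in edgeR, near the share of 6.59% over all tested genes. The smallest adjusted p in edgeR was 0.305 for *Daxx*, a histone chaperone, at 46.2 ± 3.95 CPM in control and 55.3 ± 7.19 CPM in dcKO_Nex-Cre cortex (SD, n = 4 each; log2 fold change 0.26). The median of the list was 0.04, and without dcKO_Nex-Cre replicate 4, 3 genes passed, beside 7.73% of all tested genes.

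RTL5 and RTL6 proteins have been tied to responses to microbial and viral material, and genes of innate sensing were therefore counted. None of 19 tested genes passed in edgeR or DESeq2, while 4 were higher and 1 was lower at an unadjusted p under 0.05 in edgeR, beside 6.59% and 7.05% of all tested genes. *Tlr7*, a receptor for single-stranded RNA, had the smallest p, at 2.21 ± 0.281 CPM in control and 3.54 ± 0.911 CPM in dcKO_Nex-Cre cortex (SD, n = 4 each; log2 fold change 0.68, adjusted p = 0.175 from edgeR). The median of the list was 0.17, and without dcKO_Nex-Cre replicate 4, 1 gene passed (*Mavs*, named after its values were seen), beside 7.73% of all tested genes.

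The genes whose library-to-library pattern was most like that of *Rtl5* were found by Pearson's r of log2 CPM over 8 libraries after removing the group means, among 12042 genes with at least 100 counts on average. They were *Fdps*, a farnesyl diphosphate synthase (r = 0.951), *Mettl8*, an RNA methyltransferase (0.938), *Pot1a*, a telomere protein (0.932), *2210016F16Rik* (0.924) and *Ypel5* (0.921). None of these passed an adjusted p of 0.05 between the groups. The points are the same 8 libraries for all genes, with their depth in common, and the list is a description only. When a library was left out, between 0 and 3 of the 5 genes were again among the first 5. Of the other Gag-like genes with enough counts, *Rtl8c* had r = 0.074, *Rtl8a* -0.13, *Rtl6* -0.27, *Rtl8b* -0.54 and *Peg10* -0.61.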

How the data were processed

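RNA from whole P1 cortex (4 control, 4 dcKO_Nex-Cre) had been isolated with TRIZOL and made into libraries with a kit that does not mark strand. Each file deposited by the authors holds unnormalized whole-number counts for Ensembl genes. The processing notes name the build mm10, and the aligner, counting program and annotation are not given in the sources used here. Of 48709 genes, 48349 matched GENCODE M21 by identifier.

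Counts were analysed with edgeR 4.0.16 in R 4.3.3 (filterByExpr, TMM, robust quasi-likelihood F test, two-sided, Benjamini-Hochberg adjustment over 16287 genes, threshold 0.05). Standard errors of edgeR's log2 fold changes were derived as the absolute log2 fold change divided by the square root of the F statistic. Log2 CPM used a prior count of 2. The alternatives were DESeq2 1.42.0 (size factors, or its Wald test), no filter, at least 10 counts in every sample, a replicate block, lane tag 2 only, a sex term, and leaving out each library. The level order was also computed with longest transcripts and, chosen after seeing the data, RefSeq spans. The methods were tested on simulated data in which 200 of 16287 genes were changed by 1 on the log2 scale. There edgeR recovered 187 of them with 14 wrong calls, and DESeq2 recovered 179 with 29 wrong calls. Smaller changes were not simulated. Libraries of a group differed by more than counting noise (chi-square over its degrees of freedom, smallest value 3.77).

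The members and lists were chosen with earlier results of these data known. Named genes are the 8 members, genes overlapping them, at most 3 genes past the threshold from each list or, where none passed, that with the smallest p, and the 5 genes most like *Rtl5*; others are said to be named after their values were seen or are markers. Promoters and microRNAs are from RefSeq (GRCm38.p6), which held promoters for 6 of 8 members. Tables and figures were made with Python 3.11.15, pandas 2.3.3, Biopython 1.88 and matplotlib 3.10.9.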

Additional observations from a re-analysis of the deposited data

Results flagged for a closer look

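In groups of 4 libraries, 18 sets of values were tested for a library far from its group, where chance would flag 0.9, and 2 were found. *Rtl8c* was at 26.8 CPM in control replicate 2, against 33.7 to 34.3 CPM in the other controls. *Ldoc1* was at 2.63 CPM in the same library, against 3.84 to 3.92 CPM in the other controls. Control replicate 2 is the control with high *Xist* RNA and the smallest total of counts, and its part in these values was not tested. Without this library the log2 fold change of *Rtl8c* was 0.34 and that of *Ldoc1* was -0.43.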

How the results depend on the processing

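*Rtl5*, the gene the list was chosen by, had log2 fold changes of 0.50 to 0.55 over 15 alternatives, which use the same libraries as that choice and are no independent support. Of the 8 genes, 2 passed in DESeq2's Wald test (*Rtl5*, *Rtl8c*) and 2 within lane tag 2 (*Rtl5*, *Peg10*), and leaving out a library gave 1 to 3, with 3 without dcKO_Nex-Cre replicate 4 (*Rtl5*, *Rtl8c*, *Peg10*). *Ldoc1* changed sign within lane tag 2 (0.023). The summed *Rtl8* copies ranged from 0.24 to 0.36 when a library was left out, and passed at 0.36 without dcKO_Nex-Cre replicate 4. *Rtl8a*, *Rtl8b*, *Rtl6* and *Rtl1* kept their sign and stayed short of the threshold in all 15. Over all genes, 144 calls became 460 with DESeq2's Wald test, 259 without a filter, 54 with the replicate block and 248 within lane tag 2. Leaving out a library gave 18 to 1278 calls, with 1278 without dcKO_Nex-Cre replicate 4 and at most 87 otherwise. Imprinted genes gave 3 calls with DESeq2 and 0 to 6 when a library was left out. In the same fits the other Gag-derived genes gave 0 to 1, silencing genes 0 to 3, innate genes 0 to 1 and neighbours 0 to 5 calls, and in each of these 4 lists the calls came from the fit without dcKO_Nex-Cre replicate 4. Of the 5 genes most like *Rtl5*, 0 to 3 recurred. The causes were not tested, beyond the smaller number of libraries. DESeq2 size factors moved the median log2 fold change by 0.0012. Deviations from the group means correlated between libraries of the same replicate number at -0.14 to 0.13, and 0 of the 4 controls correlated best with its own number, so that the numbers pair nothing; with the replicate block *Rtl5* stayed at 0.53. The 22 to 137 counts of *Ldoc1* and 42 to 90 of *Rtl1* limit what could be seen of these genes.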
